A study of Mus musculus with 6 samples.

Results

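Mitochondria carry their own ribosomes, which translate the few proteins of the respiratory chain and ATP synthase that the mitochondrial genome encodes. The proteins of these ribosomes are all encoded in the nucleus, made in the cytosol and imported. Some belong to families shared with bacterial ribosomes, and others have no bacterial counterpart. Heart muscle depends on this machinery, and inherited human variants in several of its genes, among them MRPL3, MRPL44 and MRPS22, cause cardiomyopathy.

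The genes described here are those whose mouse symbol starts with Mrpl or Mrps followed by a number. The gene table used here names 78 such protein-coding genes, and each had a probe on the array. Of these, 77 were well above background on all 6 arrays and were tested, among 21800 genes in all. Mrpl21 was not tested because its 1 probe was not well above background on any array. It read -7.84, -8.08 and -9.51 in wild-type pools 1, 2 and 3 and -8.75, -8.21 and -7.97 in null pools 1, 2 and 3. Levels are given throughout as log2 signal relative to the array's 75th percentile, so a level of 0 is that percentile. By their known place in the ribosome, 50 of the 77 products belong to the large subunit, including Mrps30 and Mrps18a despite their names, and 26 to the small subunit. The product of Mrps36 is known as a component of the 2-oxoglutarate dehydrogenase complex, and the gene is kept because the naming rule takes it.

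The tissue was the mouse heart at embryonic day 9.5, taken with the pharyngeal mesoderm and endoderm that lie under the heart tube. RNA was measured on 6 single-colour Agilent arrays, 3 of wild-type hearts and 3 of hearts labelled Arid3b-null, which lack the AT-rich interaction domain protein Arid3b. Each sample was a pool of 4 embryos, and the sources used here do not give the allele or the strain. There were 3 slides, and each carried 1 wild-type and 1 null pool, always in the same places, so that place and genotype cannot be told apart. With 3 arrays per group, their number limits the precision of all values.

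Arid3b itself read 2.91, 3.40 and 3.69 in the wild-type and 1.08, 0.52 and 0.45 in the null pools on its brightest probe, a log2 change of -2.65 (SE 0.26, limma adjusted p = 0.00194). The position of that probe relative to the mutation is not known here. Over all genes, 1448 (6.64%) were called higher and 831 (3.81%) lower in the null pools at a limma adjusted p under 0.05, which is 10.5% in either direction. Scaling each array to its median turned this split to 1105 higher and 1399 lower, and moved the median change of all genes from 0.027 to -0.11. The 7 cardiomyocyte markers were all measured and 0 were called, with a summed signal of 1114 to 1310 in the wild-type and 1138 to 1422 in the null pools, in multiples of the array's 75th percentile. All 6 megakaryocyte markers were called higher (2.56 to 5.13 in the wild-type and 36.3 to 59.7 in the null pools), as were 8 of 9 hypoxia response genes (247 to 347 in the wild-type and 484 to 564 in the null pools). Of the hepatic and visceral endoderm markers, Afp, Hnf4a and Rbp4 were called higher (0.408 to 0.714 in the wild-type and 3.00 to 4.20 in the null pools over 4 markers, with Alb and Apoa1 too dim to be tested). Of the neural markers, Dcx, Neurod1 and Tubb3 were called lower (0.648 to 0.874 in the wild-type and 0.362 to 0.493 in the null pools over 4 markers, with Pax6 too dim). Neurod1 was well above background on 3 wild-type and 0 null arrays, and so passed the filter through the wild-type arrays. The sums were 241 to 504 in the wild-type and 660 to 974 in the null pools for 7 primitive erythroid markers, of which 0 were called, and 7.28 to 8.62 in the wild-type and 9.23 to 10.3 in the null pools for 5 endothelial markers, of which 0 were called. They were 2.78 to 3.06 in the wild-type and 2.61 to 2.99 in the null pools for 5 pharyngeal endoderm markers, with Nkx2-1 called lower, and 0.961 to 3.16 in the wild-type and 1.39 to 4.73 in the null pools for 4 macrophage markers, with Fcer1g called higher. Of 3 measured trophoblast markers 0 were called, and the 2 with a value on all arrays, without Gcm1, summed to 0.215 to 0.256 in the wild-type and 0.178 to 27.6 in the null pools, the highest value being that of null pool 3. Gcm1, which lacked 1 array after an outlier spot was dropped, showed 1.89 (SE 0.51, limma adjusted p = 0.0688). The part of these differences in the values below was not tested, and in pooled tissue fewer cells of a type and less RNA per cell cannot be told apart.

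The sequences in front of some of these genes are shown because Mrps11 and Mrpl46, both among the 3 with the largest fall, point away from each other with start sites 42 bases apart. Each window runs from 250 bases before to 50 after the start site, from RefSeq in build GRCm38.p6, and is written 5′ to 3′ on the gene's own strand. The window of Mrps11 is chr7:78782881-78783180 on the plus strand and that of Mrpl46 chr7:78783040-78783339 on the minus strand, so that the windows overlap. Mrpl36, at chr13:73330759-73331058 on the plus strand, had the smallest p of the set. Mrpl58, at chr11:115403502-115403801 on the plus strand, and Mrps26, at chr2:130563507-130563806 on the plus strand, are shown because each holds several of the motifs searched. Mrpl23, at chr7:142532782-142533081 on the plus strand, had the largest positive change. Capitals mark matches, on either strand, to the core motifs of 3 factors known to act on nuclear genes for mitochondrial proteins. These are CCGGAAG for ETS factors such as GABPA, GCGCA followed after any 1 base by GCGC for NRF1, and ANATGGCG for YY1.
Mrps11: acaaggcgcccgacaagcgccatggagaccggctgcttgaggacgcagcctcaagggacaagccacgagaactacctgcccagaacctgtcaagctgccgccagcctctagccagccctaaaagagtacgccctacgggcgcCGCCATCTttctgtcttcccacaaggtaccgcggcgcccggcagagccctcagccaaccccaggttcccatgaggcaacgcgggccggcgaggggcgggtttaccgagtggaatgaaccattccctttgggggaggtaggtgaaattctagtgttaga
Mrpl46: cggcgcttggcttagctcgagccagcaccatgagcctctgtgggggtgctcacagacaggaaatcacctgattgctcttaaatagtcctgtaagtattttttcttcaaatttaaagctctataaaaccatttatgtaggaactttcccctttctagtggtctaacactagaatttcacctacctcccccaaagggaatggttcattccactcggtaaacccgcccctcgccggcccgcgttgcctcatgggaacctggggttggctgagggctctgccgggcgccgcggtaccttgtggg
Mrpl36: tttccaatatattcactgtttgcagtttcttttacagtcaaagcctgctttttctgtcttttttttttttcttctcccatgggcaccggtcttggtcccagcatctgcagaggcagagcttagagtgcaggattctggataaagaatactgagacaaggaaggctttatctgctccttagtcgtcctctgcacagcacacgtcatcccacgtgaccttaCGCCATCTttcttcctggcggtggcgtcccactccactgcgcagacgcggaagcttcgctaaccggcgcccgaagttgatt
Mrpl58: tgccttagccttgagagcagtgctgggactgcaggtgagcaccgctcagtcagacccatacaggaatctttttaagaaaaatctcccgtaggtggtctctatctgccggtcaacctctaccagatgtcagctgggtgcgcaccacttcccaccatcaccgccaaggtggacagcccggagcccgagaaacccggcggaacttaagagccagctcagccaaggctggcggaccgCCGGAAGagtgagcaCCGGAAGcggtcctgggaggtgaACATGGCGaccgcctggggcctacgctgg
Mrps26: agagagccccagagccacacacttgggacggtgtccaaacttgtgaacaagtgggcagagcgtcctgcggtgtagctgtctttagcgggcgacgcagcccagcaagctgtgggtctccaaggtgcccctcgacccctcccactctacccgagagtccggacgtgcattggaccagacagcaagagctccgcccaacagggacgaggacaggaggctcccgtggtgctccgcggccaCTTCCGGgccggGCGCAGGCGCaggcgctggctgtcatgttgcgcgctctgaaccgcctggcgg
Mrpl23: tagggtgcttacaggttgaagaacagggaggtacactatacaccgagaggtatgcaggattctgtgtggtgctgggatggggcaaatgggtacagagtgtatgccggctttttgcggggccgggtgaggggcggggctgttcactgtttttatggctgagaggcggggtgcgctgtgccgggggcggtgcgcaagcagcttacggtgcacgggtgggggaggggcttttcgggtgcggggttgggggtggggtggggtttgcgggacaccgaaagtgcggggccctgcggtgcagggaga

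Such matches were common in the set. Of the 77 tested genes, 68 had a window in the table. The ETS core lay in 25 of the 68 (36.8%), against 9.93% of all 27025 genes with a window and 17.0% of those also tested. The NRF1 core, which can overlap its own reverse complement, lay in 13 (19.1%), against 5.19% of all and 9.84% of the tested genes. The YY1 core lay in 11 (16.2%), against 4.23% and 6.91%. The E-box CACGTG, the core bound by MYC, lay in 5 (7.35%), against 8.09% of all and 11.0% of the tested genes, and TATAAA in 5 (7.35%), against 15.7% and 10.3%. A match says only that these letters are present.

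The changes in the null hearts were set beside these motifs. The median log2 change was -0.40 among the 25 genes with the ETS core and -0.29 among the 43 without it. It was -0.21 with and -0.40 without the NRF1 core, and -0.51 with and -0.31 without the YY1 core. Of the 9 genes called lower, 8 had a window. None of the 8 windows held the ETS or the NRF1 core, and those of Mrps11 and Mrpl36 held the YY1 core. The YY1 match of Mrps11 lies just past the downstream end of the Mrpl46 window. That Mrpl46 has no match thus depends on where its window ends. The E-box and TATAAA lay in 2 of the 8 each. These differences were described and not tested.

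Null and wild-type hearts were compared to see which transcripts differ when Arid3b is missing. Most mitochondrial ribosomal protein genes read slightly lower in the null hearts. Of the 77, 9 fell, 0 rose and 68 did not pass the limma test, so that 11.7% were called lower, beside 3.81% of all genes tested. The log2 change was below 0 for 72 of the 77 (93.5%), beside 47.4% of all genes, and the median change was -0.36 beside 0.027 over all genes. Changes ran from -0.99 to 0.47, with SEs between 0.14 and 0.30, so none reached 1 log2 unit. All 3 null pools lay below all 3 wild-type pools for 42 of the 77 genes, beside 14.9% of all genes, and above them for 2, beside 18.1%. At an unadjusted limma p under 0.05, 30 of the 77 were lower, beside 11.8% of all genes. Most of the 77 had a wild-type mean above 0, as did 8281 of all genes tested. Of those 8281, 54.1% had a change below 0, with a median of -0.039, and 3.37% were called lower. For 19.4% of them all null pools lay below all wild-type pools. The number of the 77 called depended on the pools and the fit. Leaving out wild-type pool 1, 2 or 3 gave 3, 2 and 3 calls, and leaving out null pool 1, 2 or 3 gave 2, 0 and 3. The shares of the 77 were 3.90%, 2.60% and 3.90%, then 2.60%, 0% and 3.90%. Of all genes, 2.25%, 1.11% and 1.47%, then 2.66%, 1.42% and 1.58% were called lower in the same fits. Without null pool 1 the share of the set was thus near that of all genes, and without null pool 2 below it. When the slide entered the fit as a block, 0 of the 77 were called in either direction, beside 0.931% of all genes lower and 2.47% higher.

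**Figure D1:**
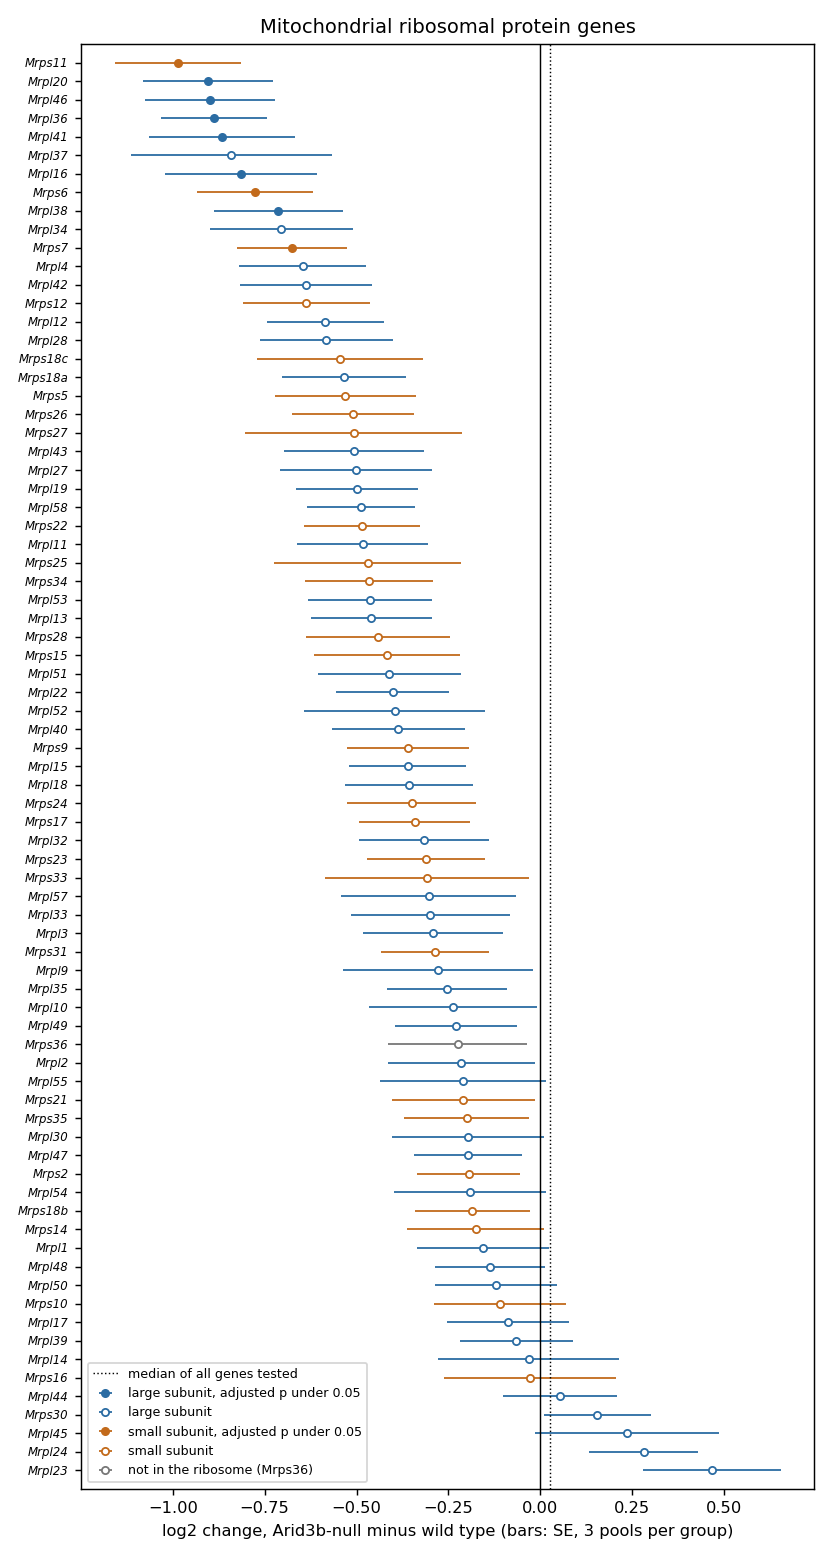
Log2 change of each of the 77 genes (x axis, Arid3b-null minus wild type) with its SE, in the order of the change. Filled points have a limma adjusted p under 0.05, colours give the subunit, and the dotted line marks the median of all genes tested. All but 5 points lie left of 0, and the filled ones lie between -0.99 and -0.68.

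**Figure D2:**
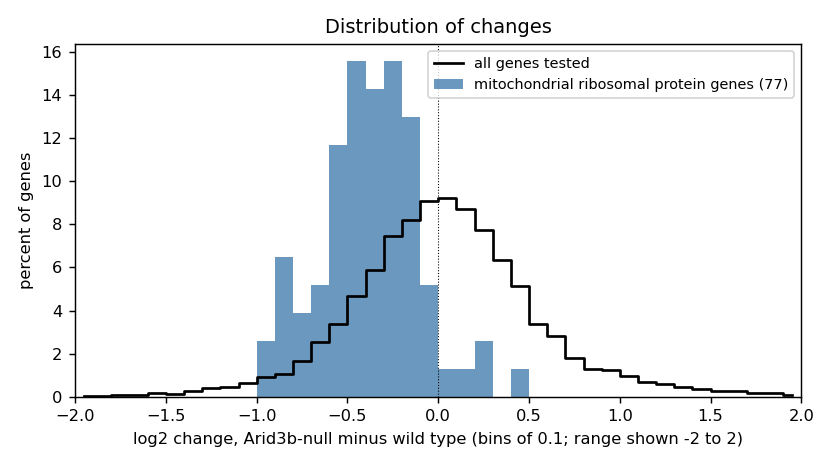
Share of genes (y axis, percent) per bin of log2 change (x axis, Arid3b-null minus wild type) for the 77 mitochondrial ribosomal protein genes (bars) and all 21800 genes tested (line). The bars centre on a median of -0.36 and the line on 0.027, and the distributions overlap widely.

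The pools of a group differed from each other as well. Relative to each gene's wild-type mean, the median gene stood at 0.14, -0.085 and -0.061 in wild-type pools 1, 2 and 3 and at -0.55, -0.31 and -0.26 in null pools 1, 2 and 3. Null pool 1 was thus the lowest and wild-type pool 1 the highest, and the medians of the groups did not overlap. In null pools 1, 2 and 3, 72, 71 and 61 of the 77 genes lay under their wild-type mean. Of all 21800 genes, 11289, 9881 and 9806 did so in these pools. Within slides 1, 2 and 3 the median difference of null from wild type was -0.66, -0.22 and -0.20, while over all genes it was -0.11, 0.091 and 0.13. The difference was largest on slide 1. The number of the 77 genes lower in the null array was 69, 59 and 54 on these slides. Over all 21800 genes it was 12410, 9579 and 9170 on the same slides. Of the 77, 44 were lower on all 3 (57.1%, beside 17.8% of all genes and 21.6% of those with a wild-type mean above 0).

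**Figure D3:**
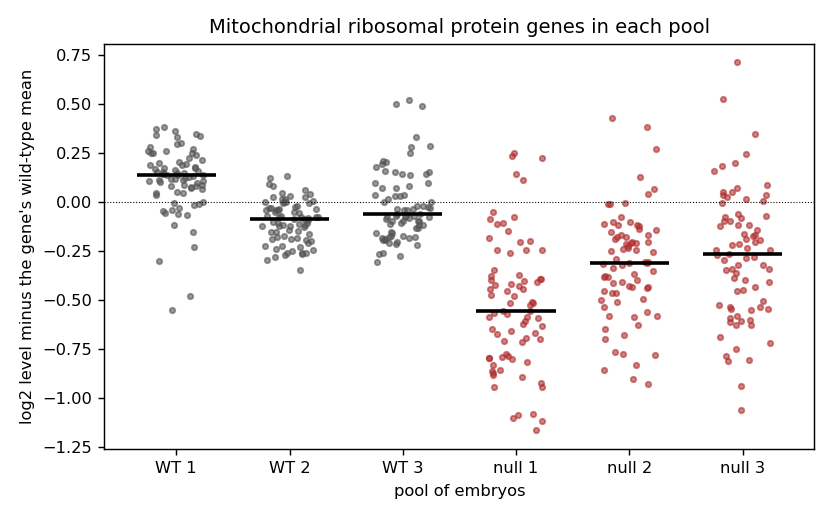
Log2 level of each of the 77 genes minus its own wild-type mean (y axis) in each of the 6 pools (x axis). Points are genes and bars are medians, which lie at 0.14, -0.085 and -0.061 in the wild-type (WT) pools and at -0.55, -0.31 and -0.26 in the null pools.

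Among genes of the small subunit 3 of 26 fell, and the change was below 0 for all 26, with a median of -0.39. The sign turned for Mrps25 on its other probe and for Mrps16 in some other settings, as given below. Mrps11, a platform protein of a family shared with bacteria, read 1.17, 0.87 and 1.31 in wild-type pools 1, 2 and 3 and 0.028, 0.19 and 0.18 in null pools 1, 2 and 3. Its log2 change of -0.99 (SE 0.17, limma adjusted p = 0.0147) is a fall of 1.98-fold. Every null pool lay below every wild-type pool, as for the other 8 genes that fell. The calls rest on these same values, so this separation is no further support for them. Mrps6, another conserved platform protein, read 3.12, 2.91 and 2.97 in the wild-type and 2.08, 2.23 and 2.38 in the null pools, and fell by 0.78 (SE 0.16, limma adjusted p = 0.0250). Mrps7, whose bacterial relative starts the assembly of the head of the subunit, read 3.81, 3.71 and 3.70 in the wild-type and 2.95, 3.04 and 3.19 in the null pools. It fell by 0.68 (SE 0.15, limma adjusted p = 0.0326), and its other probe showed -0.85 (SE 0.19).

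The large subunit held the other 6 genes that fell, of 50, and 45 of the 50 changes were below 0, with a median of -0.36. Mrpl36 encodes a small zinc-binding protein of a family shared with bacteria. It read 3.06, 2.91 and 2.94 in the wild-type and 2.03, 2.07 and 2.16 in the null pools, a log2 change of -0.89 (SE 0.15, limma adjusted p = 0.0117). The pools of each group lay close together for this gene, at 2.97 ± 0.078 and 2.08 ± 0.068 (SD, n = 3 pools each). Mrpl20, whose bacterial relative takes part in early assembly of the subunit, read 4.55, 4.25 and 4.20 in the wild-type and 3.23, 3.47 and 3.58 in the null pools, and fell by 0.90 (SE 0.18, limma adjusted p = 0.0219). Mrpl16, of a conserved family that lies near the tRNA sites, read 2.35, 2.20 and 1.97 in the wild-type and 1.01, 1.5 and 1.58 in the null pools, and fell by 0.81 (SE 0.21, limma adjusted p = 0.0485). Null pool 1 was the lowest for all 3.

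The remaining 3 encode proteins without a bacterial counterpart. Mrpl46, of the central protuberance of the subunit, read 1.04, 0.81 and 1.17 in the wild-type and -0.11, 0.23 and 0.20 in the null pools, and fell by 0.90 (SE 0.18, limma adjusted p = 0.0225). Mrpl38, of the same structure, read 1.46, 1.26 and 1.74 in the wild-type and 0.69, 0.86 and 0.77 in the null pools, and fell by 0.71 (SE 0.18, limma adjusted p = 0.0438). Wild-type pool 2 was the lowest of its group for both, and likewise for Mrpl41. Mrpl41 read 3.36, 2.82 and 3.12 in the wild-type and 2.02, 2.27 and 2.41 in the null pools, and fell by 0.87 (SE 0.20, limma adjusted p = 0.0358) on its brighter probe, while the other showed -0.29 (SE 0.15). With the slide as a block the adjusted p of the 9 genes lay between 0.0834 and 0.203. All 9 calls were lost without null pool 2. Without any 1 of the other 5 pools the calls of Mrps11 and Mrpl36 held, and without wild-type pool 3 or null pool 3 also that of Mrpl20. Mrpl37, described next, was called in addition without wild-type pool 1. The call of Mrpl41 was also lost with the mean of its probes (adjusted p = 0.0562), and that of Mrpl38 in the authors' value table (adjusted p = 0.0571).

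**Figure D4:**
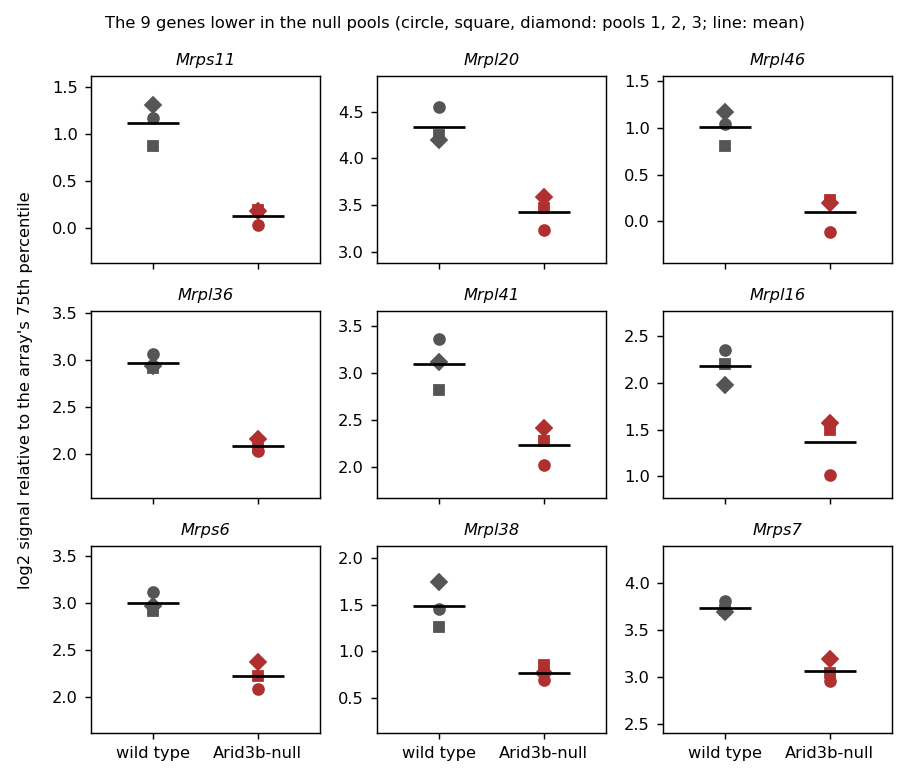
Log2 signal relative to the array's 75th percentile (y axis) of the 9 genes that fell, in wild-type and Arid3b-null pools. Symbols give the pool number, lines the group means, and each panel spans 2 log2 units. In each panel all 3 null pools lie below all 3 wild-type pools, as for Mrps11 at 0.028 to 0.19 against 0.87 to 1.31. The genes were called on these same values.

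Several genes with changes of similar size did not pass. Mrpl37, without a bacterial counterpart, read -0.47, 0.14 and 0.57 in the wild-type and -0.61, -0.68 and -0.98 in the null pools, a change of -0.84 with an SE of 0.27 and a limma adjusted p = 0.0980. Its wild-type pools differed from each other by more than the lowest of them did from the highest null pool. Mrpl34 (-0.70), Mrpl4 (-0.65), Mrpl42 (-0.64), Mrps12 (-0.64) and Mrpl12 (-0.58) lay just outside the threshold, with limma adjusted p from 0.0571 to 0.0667. Mrpl16 (0.0485) and Mrpl38 (0.0438) lay just inside. Mrps12, of the decoding centre, read 3.82, 3.45 and 3.78 in the wild-type and 2.89, 3.1 and 3.15 in the null pools. For all 6 of the genes that did not pass the groups did not overlap.

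The stalk of the large subunit, which recruits translation factors, is built on Mrpl10, Mrpl11 and copies of Mrpl12. Mrpl12 read 4.60, 4.5 and 4.85 in the wild-type and 4.09, 4.07 and 4.03 in the null pools. The change of Mrpl11 was -0.48 (SE 0.18) and that of Mrpl10 -0.24 (SE 0.23), with -0.26 (SE 0.35) on its other probe. None of the 3 passed, and for Mrpl10 the groups overlapped.

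Among genes in which human variants are known to affect the heart or the respiratory chain, Mrps7 fell and the others named here did not pass. Mrps22 showed -0.49 (SE 0.16) with no overlap between groups, and Mrpl3 -0.29 (SE 0.19) with overlap. Mrpl44, whose product resembles an RNase, read 0.88, 1.02 and 0.78 in the wild-type and 1.04, 0.82 and 0.98 in the null pools. Its groups overlapped, and its change of 0.053 (SE 0.15) turned to -0.081 with median scaling. Mrps2, Mrps16 and Mrps34 showed -0.19 (SE 0.14), -0.027 (SE 0.23) and -0.47 (SE 0.17). The sign of Mrps16 turned with quantile normalization (0.037).

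The 3 paralogues named Mrps18 did not pass. Mrps18a showed -0.53 (SE 0.17), Mrps18c -0.54 (SE 0.23) and Mrps18b -0.18 (SE 0.16), the last with -0.64 (SE 0.24) on its other probe. Mrpl58, a peptidyl-tRNA hydrolase built into the large subunit, read 4.07, 4.0 and 3.93 in the wild-type and 3.49, 3.44 and 3.62 in the null pools. Its change of -0.49 (SE 0.15) had a limma adjusted p = 0.0795. Mrps36 showed -0.22 (SE 0.19).

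The 5 genes with a positive change all belong to the large subunit, and none passed. Mrpl23, which lies beside the imprinted cluster of H19 and Igf2, read 4.59, 4.39 and 4.21 in the wild-type and 4.65, 4.83 and 5.11 in the null pools, a change of 0.47 (SE 0.19, limma adjusted p = 0.164). Mrpl24 read 2.94, 2.73 and 2.83 in the wild-type and 3.06, 3.1 and 3.18 in the null pools, a change of 0.28 (SE 0.15). Of the 77 genes, these were the 2 whose null pools all lay above the wild-type pools. Mrpl45, known as a contact of the ribosome with the inner membrane, showed 0.24 (SE 0.25) and Mrps30 0.15 (SE 0.15), and Mrpl44 was the fifth.

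The classes by origin had similar medians. In the large subunit the median change was -0.32 over 29 conserved and -0.40 over 21 mitochondria-specific genes, with 3 that fell in each. In the small subunit it was -0.39 over 16 conserved genes, of which 3 fell, and -0.39 over 10 mitochondria-specific genes, of which 0 fell. These classes were described and not tested against each other. Of the 77 genes, 21 had a second probe well above background, and for 20 of the 21 both probes showed a change below 0. None of the 5 genes with a positive change had a second probe, so these are not among the 21. The exception was Mrps25, at -0.47 (SE 0.25) on the brighter probe and 0.29 (SE 0.17) on the other. The median gap between the probes of a gene was 0.14, and it was above 0.5 for Mrps25 and Mrpl41.

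Mrps11 and Mrpl46 were the 1 pair within the set whose start sites face away from each other within 1000 bases. In all, 25 of the 68 genes with a window had such a partner on the opposite strand, and 20 measured partners lay outside the set. None of the 20 was called, beside 10.5% of all genes, their median change was -0.17, and 12 were below 0. Twnk, the helicase that replicates mitochondrial DNA, starts 116 bases from Mrpl43 and showed -0.37 (SE 0.20), while Mrpl43 showed -0.51 (SE 0.19). Sars2, the mitochondrial seryl-tRNA synthetase, starts 147 bases from Mrps12 and showed -0.43 (SE 0.21). Fau, which encodes a protein of the cytosolic ribosome, starts 192 bases from Mrpl49 and showed 0.63 (SE 0.22), against -0.23 (SE 0.17) for Mrpl49. Gga3, a trafficking adaptor that starts 224 bases from the called gene Mrps7, showed -0.096 (SE 0.14).

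Of 70 other genes of mitochondrial gene expression, 69 were measured, 1 fell (1.45%, beside 3.81% of all genes) and 0 rose, beside 6.64%. The median change was -0.19, and 68.1% were below 0, beside 47.4% of all genes. The gene that fell was Polrmt, the mitochondrial RNA polymerase. It read 1.11, 1.18 and 1.07 in the wild-type and 0.41, 0.60 and 0.60 in the null pools, a log2 change of -0.58 (SE 0.15, limma adjusted p = 0.0481), and the groups did not overlap. Its call was lost once the slide was a block (adjusted p = 0.258) and without any 1 of the 6 pools (adjusted p from 0.0940 to 0.151).

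The 5 ribosomal proteins with other names, Dap3, Ptcd3, Gadd45gip1, Chchd1 and Aurkaip1, had a median of -0.28, with 0 called. Over all genes 10.5% were called in either direction, the share to set beside this and the next counts called. Dap3 stood at 0.30 (SE 0.16), and its null pools all lay above the wild-type pools, as for 18.1% of all genes. The 16 measured translation factors and partners had a median of -0.21, with 0 called. Of these, Gfm1, an elongation factor, stood at -0.49 (SE 0.18), Tufm, the factor that delivers tRNAs, at -0.33 (SE 0.15), and Oxa1l, the insertase of the inner membrane, at 0.35 (SE 0.18). The 29 assembly and rRNA modification factors had a median of -0.25, with 21 below 0 (72.4%, beside 47.4% of all genes) and 0 called. Fastkd2, which binds the large rRNA, was well above background on 3 wild-type arrays but on 1 null array, and no change is given for it. Dhx30, a helicase, stood at -0.34 (SE 0.15). The 10 genes of mitochondrial DNA replication and transcription, Polrmt included, had a median of -0.23, with Tfam, which packages mitochondrial DNA, at -0.31 (SE 0.23) and Polg2, the accessory subunit of the DNA polymerase, at 0.49 (SE 0.17).

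Of 9 regulators of mitochondrial biogenesis 0 were called, beside 10.5% of all genes in either direction. The 9 had a median change of 0.15, with 5 above and 4 below 0. Nrf1 read 0.79, 1.0 and 0.76 in the wild-type and 0.56, 0.34 and 0.56 in the null pools, a change of -0.36 (SE 0.16, limma adjusted p = 0.193), without overlap of the groups. The coactivators Ppargc1a and Ppargc1b stood at 0.41 (SE 0.18) and 0.51 (SE 0.24), Myc at 0.39 (SE 0.17), Gabpa at -0.13 (SE 0.27) and Yy1 at 0.21 (SE 0.19). For Ppargc1a and Myc all null pools lay above all wild-type pools, while for Ppargc1b, Gabpa and Yy1 the groups overlapped. The null pools thus lay fully above for 2 of the 9, beside 18.1% of all genes. They lay fully below for 1, beside 14.9%.

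The 78 measured genes of the cytosolic ribosome, named Rpl or Rps, lay mostly on the other side of 0. None of them was called, beside 10.5% of all genes in either direction. Of the 78 changes, 71 were above 0 and 8.97% below it, beside 47.4% of all genes below 0, and the median was 0.33. Within slides 1, 2 and 3 their median was -0.19, 0.43 and 0.69, so that slide 1 had the opposite sign. The 83 measured genes named as nuclear-encoded respiratory chain and ATP synthase subunits had a median of -0.096, and -0.53, 0.11 and 0.28 within the slides, with 0 called lower and 4 of 83 higher, beside 3.81% and 6.64% of all genes. The 4 were Cox4i2 (2.65), Cox6b2 (1.11), Cox8b (1.72) and Ndufa4l2 (5.0). Slide 1 gave the lowest median in all 3 groups of genes. The differences between these groups were not tested.

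**Figure D5:**
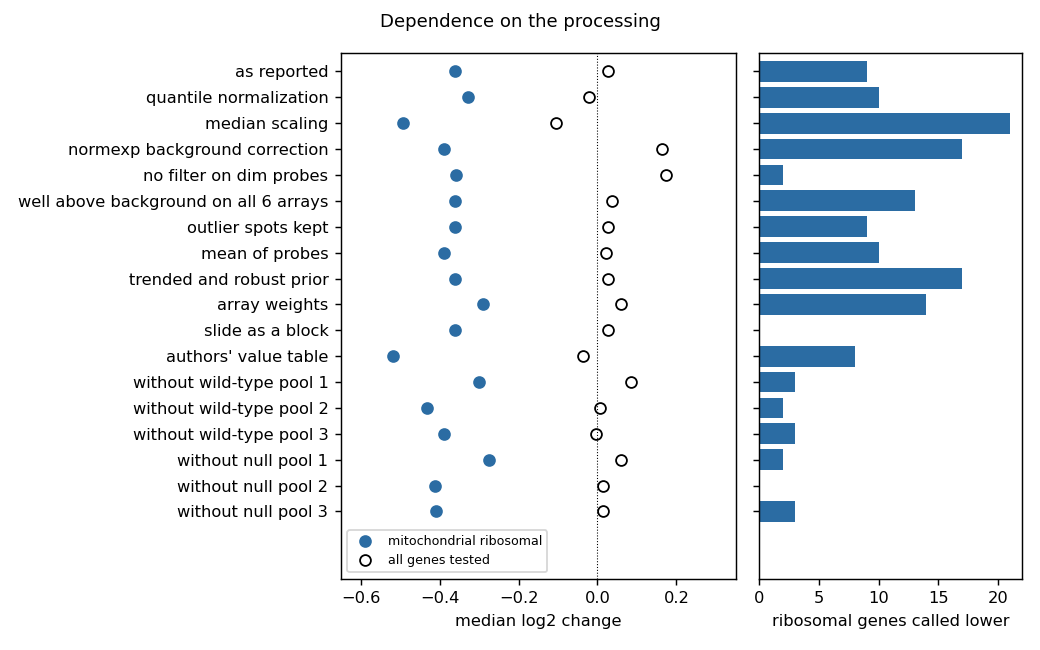
Median log2 change of the mitochondrial ribosomal protein genes (filled) and of all genes tested (open) on the left, and the number of the former called lower on the right, as reported and under each other setting. The filled points stay between -0.52 (authors' value table, 39 of the genes) and -0.28, while the number called ranges from 0 to 21. The share of all genes called lower, not shown, ranges from 0.870% to 6.95%.

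The median of the set stayed below 0 under all 17 other settings tried, while the number of calls varied. A trended prior, the slide as a block and a filter on all 6 arrays could not move the median. They left the change of each of the 77 genes as it was. The median change was -0.52 in the authors' value table, which holds 39 of the genes and none of the 5 with a positive change. In the other settings it lay between -0.49, with median scaling, and -0.28, without null pool 1. Relative to the median of all genes in the same setting it lay between -0.55 and -0.31.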

How the data were processed

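RNA of 3 wild-type and 3 Arid3b-null heart pools was hybridised to single-colour arrays of Agilent design 026655. Per the file headers, the deposited intensity values came from Agilent Feature Extraction 10.7.3.1, with background subtracted by spatial detrending and arrays left unscaled. The authors' deposited log2 table covered 24158 probes. The sources used here do not say how it was normalized, but on each array it correlated above 0.999 with the log2 scanner signal. Its medians were nearly equal (6.76 to 6.77), and so were its lower (4.42 to 4.45) and upper quartiles (9.14 to 9.15). Flags for outlying spots and for spots well above background were also used, per the file headers.

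Each array's 75th percentile of log2 processed signal was subtracted, outlier spots were dropped and spots of a probe averaged. That percentile was 9.50, 9.57 and 10.16 in wild-type pools 1, 2 and 3 and 9.47, 9.29 and 9.02 in null pools 1, 2 and 3. Every null array was thus dimmer than every wild-type array. Spots well above background numbered 30005, 29139 and 31039 in the wild-type and 29149, 29115 and 27136 in the null pools. The part of this difference in the changes was not tested. Probes well above background on at least 3 of 6 arrays were kept (26848 of 39429), with the brightest per gene. RefSeq accessions in a table of GRCm38.p6 named 26424 probes with a symbol, and the rest kept the accession. Of the 21800 genes tested, 16 lacked 1 array after outlier spots were dropped, none of them of the set. The test was limma 3.58.1 in R 4.3.3 (lmFit, eBayes, no block, two-sided), with data.table version 1.17.8, and p-values were adjusted by Benjamini-Hochberg across the 21800 genes. With 3 pools per group an exact permutation test could reach no p below 0.1, so none was run. The test was checked on simulated data.

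The set, its lists, the naming rule and the alternatives were chosen with earlier results of these data known. Named were all called genes of the set, 18 genes fixed by role, up to 6 of the largest changes in each direction that did not pass, genes whose probes differed by over 0.5, called genes of the mitochondrial expression lists, and Arid3b. The other genes, such as partners across a start site and further list members, were named after their values were seen. Pools that share a number and a slide did not deviate in the same direction. Across genes, their deviations from the group means correlated at -0.41, -0.088 and -0.41. For wild-type and null pools from different slides the correlations lay between -0.18 and 0.49.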

Additional observations from a re-analysis of the deposited data

How the results depend on the processing

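Of the set, 9 genes were called lower. The count was 21 with median scaling, 17 with normexp background correction (run on median signals, the mean not being in the files used here), 17 with a trended and robust prior, 14 with array weights and 2 when dim probes were kept. These were 27.3%, 22.1%, 22.1%, 18.2% and 2.56% of the set. The share of all genes called lower moved too, to 6.42%, 3.23%, 4.86%, 6.95% and 0.870% in the same order, from 3.81% as reported. The count lay between 0 and 3 with any 1 pool left out, beside 1.11% to 2.66% of all genes. With the shared number, which is also the slide, as a replicate block it was 0, beside 0.931%. Under the other alternatives it was 8 to 13, beside 3.80% to 5.13% of all genes. The count of genes of the set called higher was 0 in all settings. The median change of -0.36 moved by more than the spread of the wild-type pools (0.12) with median scaling (-0.49). In the authors' value table it was -0.52, but over 39 of the genes, all with a change below 0 there. The 5 genes with a positive change are not among them, so this value is not over the same genes. The 1 mitochondrial expression gene called lower became 4 with median scaling or array weights, 2 with normexp, a mean over probes or a trended prior, and 0 with dim probes kept, the replicate block or the authors' value table. It was 0 to 1 with any 1 pool left out. Mrpl44 turned to -0.081 with median scaling and -0.041 with array weights, and lay between -0.0028 and 0.12 with 1 pool left out. Mrps16 turned to 0.037 with quantile normalization and 0.096 with array weights, and lay between -0.17 and 0.16 with 1 pool left out. The call of Arid3b held in all settings, and the cause of these shifts was not tested.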
